A study of Mus musculus with 9 samples.

Results

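The Speer gene cluster of mouse chromosome 5 is a block of near-identical gene copies in which all 6 deposited H3R2me2a peak lists held dense peaks. Its members were the peaks that start between 14 and 16 Mb of chromosome 5 (build mm10), a window chosen by its peak density and summit height in these same lists. The window held 2298 of the 1548240 peaks of the 6 lists, and the 10 Mb before it and the 10 Mb after it served as flanks. The window also overlapped 24 RefSeq genes, among them the 6 by which the cluster was defined, Speer4c, Speer4d, Speer4e, Gm10354, Gm21149 and Gm9758.

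The lists came from chromatin immunoprecipitation with sequencing (ChIP-seq) of mouse bone marrow cells, which the design text describes as leukemia cells. H3R2me2a is the asymmetric dimethylation of arginine 2 on histone H3. Cells were wild type (WT), Prmt6 knockout (Prmt6KO) or Igf2bp2 knockout (Igf2bp2KO), and all were grown with interleukin 3, interleukin 6 and stem cell factor and fixed with formaldehyde. Each genotype had a pair of H3R2me2a libraries, 6 in all. The 3 inputs were not analysed here. The age of the mice, the extent of the deletions and the origin of the leukemia are not given in the sources used here. Peak lists hold no expression values, so the labelled cell type could not be checked against its markers. The labels do not say whether both libraries of a genotype had cells of their own, so p-values and SDs measure only the spread between these libraries, which may be technical. In bulk cells, fewer cells with the mark and less of the mark per cell cannot be told apart.

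PRMT6 is the enzyme known to write H3R2me2a, and the mark is known to be found apart from the H3K4 trimethylation of active promoters. IGF2BP2 is an RNA-binding protein that reads m6A-modified messenger RNA. The Speer genes encode spermatogenesis associated glutamate-rich proteins, a rodent family that is known for expression in the testis and that shares sequence with Dlg5, a gene for a scaffold protein. The family lies in tandem copies, so a short sequencing read can fit more than 1 copy. The sources used here do not say how such reads were placed. The share of fragments that fit several copies was not tested. A value for a single copy below is therefore uncertain.

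The copies are shown by their sequence just upstream of the gene start, because the peaks lay on all of them and the likeness of the copies bears on how each value can be read. Over the window from 250 bases before to 50 after the start, the RefSeq promoters (GRCm38.p6, the build mm10) of the 9 protein-coding genes of the array were 96.6% to 99.1% identical in 36 pairwise local alignments, with a median of 98% and 231 to 300 aligned bases. The longest stretch common to all 9 had 31 bases. On either strand it occurred in 10 of 32851 promoters of the table (0.0304%), the other being that of Gm7361, which starts beyond the flank after the window. The 250 upstream bases follow for 4 copies and for Speer4b, a relative outside the window, with the stretch in capitals. The first pair had a promoter peak in 5 lists and the second pair in 2.
Gm9758, chr5:14914890-14915139, minus strand: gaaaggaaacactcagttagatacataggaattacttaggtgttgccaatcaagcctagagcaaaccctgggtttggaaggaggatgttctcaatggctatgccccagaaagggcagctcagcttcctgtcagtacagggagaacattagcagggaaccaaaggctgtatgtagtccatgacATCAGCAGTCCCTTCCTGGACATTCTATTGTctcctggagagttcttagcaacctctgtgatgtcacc
Gm21190, chr5:15529223-15529472, minus strand: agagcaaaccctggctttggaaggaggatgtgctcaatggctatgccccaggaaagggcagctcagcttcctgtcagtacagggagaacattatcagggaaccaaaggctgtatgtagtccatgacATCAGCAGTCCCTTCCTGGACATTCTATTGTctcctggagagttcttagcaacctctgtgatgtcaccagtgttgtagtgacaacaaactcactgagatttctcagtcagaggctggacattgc
Speer4e, chr5:14938476-14938725, minus strand: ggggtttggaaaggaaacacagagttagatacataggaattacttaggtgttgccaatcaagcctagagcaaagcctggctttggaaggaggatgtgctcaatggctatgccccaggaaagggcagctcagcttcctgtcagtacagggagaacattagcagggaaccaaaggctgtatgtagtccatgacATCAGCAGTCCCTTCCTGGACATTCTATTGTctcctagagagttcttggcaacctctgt
Speer4d, chr5:15618849-15619098, plus strand: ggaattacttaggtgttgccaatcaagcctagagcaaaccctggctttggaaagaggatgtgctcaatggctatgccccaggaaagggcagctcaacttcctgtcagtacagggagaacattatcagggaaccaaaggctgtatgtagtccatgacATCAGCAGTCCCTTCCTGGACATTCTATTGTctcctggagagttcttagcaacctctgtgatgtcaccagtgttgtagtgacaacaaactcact
Speer4b, chr5:27501393-27501642, minus strand: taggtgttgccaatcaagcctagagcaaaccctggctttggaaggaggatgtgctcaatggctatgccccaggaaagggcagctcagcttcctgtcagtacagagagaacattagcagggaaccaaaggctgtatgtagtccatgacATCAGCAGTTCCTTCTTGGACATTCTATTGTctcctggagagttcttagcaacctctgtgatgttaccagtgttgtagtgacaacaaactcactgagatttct
In Speer4b the capitals mark the closest match to the stretch, which had 2 mismatches.

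The 6 lists differed in length and depth. There were 165304 and 134492 peaks in WT, 814517 and 431638 peaks in Prmt6KO, and only 1028 and 1261 peaks in Igf2bp2KO. The background behind the deposited fold enrichments amounted to 1.46 and 1.44 fragments for WT, 0.737 and 1.21 for Prmt6KO, and 1.45 and 1.33 for Igf2bp2KO. Both WT lists began at summits of 4 fragments, the Prmt6KO lists at 2 and 3, and the Igf2bp2KO lists at 8 and 7. WT replicate 1 stood apart, with 1.25% of its peaks on the X chromosome against 5.10% to 7.94% in the other libraries. Values are therefore given for each WT library. A peak is called high here when its summit held at least 6 times the background of its own library, which took 9 fragments in WT and Igf2bp2KO, and 5 and 8 in Prmt6KO.

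All 6 lists held peaks in the window, and in the Igf2bp2KO lists it held 24.4% and 19.1% of all peaks on chromosomes 1 to 19 and X. In WT, replicate 1 had 405 peaks in the window and replicate 2 had 192. In Prmt6KO there were 685 and 549, and in Igf2bp2KO 234 and 233. The other lists had 0.0843% to 0.249% of their peaks on these chromosomes there. Their flanks held 1525 and 1355 peaks in WT, 6395 and 3876 in Prmt6KO, and 0 in both Igf2bp2KO libraries. Per Mb, the WT libraries had 202.5 and 96 peaks in the window against 76.3 and 67.8 in the flanks, which was 2.66-fold and 1.42-fold. The Prmt6KO libraries had 342.5 and 274.5 per Mb against 319.8 and 193.8, or 1.07-fold and 1.42-fold. With 3 peaks as the limit for flanks at 0 in each Igf2bp2KO list, the density in the window was at least 780-fold and 777-fold higher. The Igf2bp2KO lists began at summits of 8 and 7 fragments and the others at 2 to 4, so these ratios are taken at unlike heights. Over high peaks alone, as given below, the WT and Prmt6KO libraries had 4.45-fold to 53.3-fold. These densities helped to choose the window and are given without a test.

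The dense peaks lay in the gene array and at its edges, not across the whole window. The array ran from Gm52805 to Speer4cos in 2 parts, 14906105 to 15033016 and 15471706 to 15714596, and covered 369.8 kb with 16 of the 24 genes. In the array the density was 759.9 and 278.5 peaks per Mb for WT, 813.9 and 730.1 for Prmt6KO, and 543.5 and 551.6 for Igf2bp2KO. The part of the window before and after the array, 1.19 Mb in all, had 76.4 and 63.0 per Mb in WT and 294.6 and 208.1 in Prmt6KO, near the levels of the flanks. In the same 1.19 Mb the Igf2bp2KO lists held 3 peaks and 1 peak. Their first peaks began at 14900023 and 14900043, about 6 kb before the array, and their last ended at 15713710 and 15714598, where the array ends. Peaks covered 46.4% and 10.8% of the bases of the array for WT, 56.5% and 60% for Prmt6KO, and 26.3% and 28.7% for Igf2bp2KO. The part of the array covered in WT replicate 2 was thus the smallest of the 6.

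**Figure D1:**
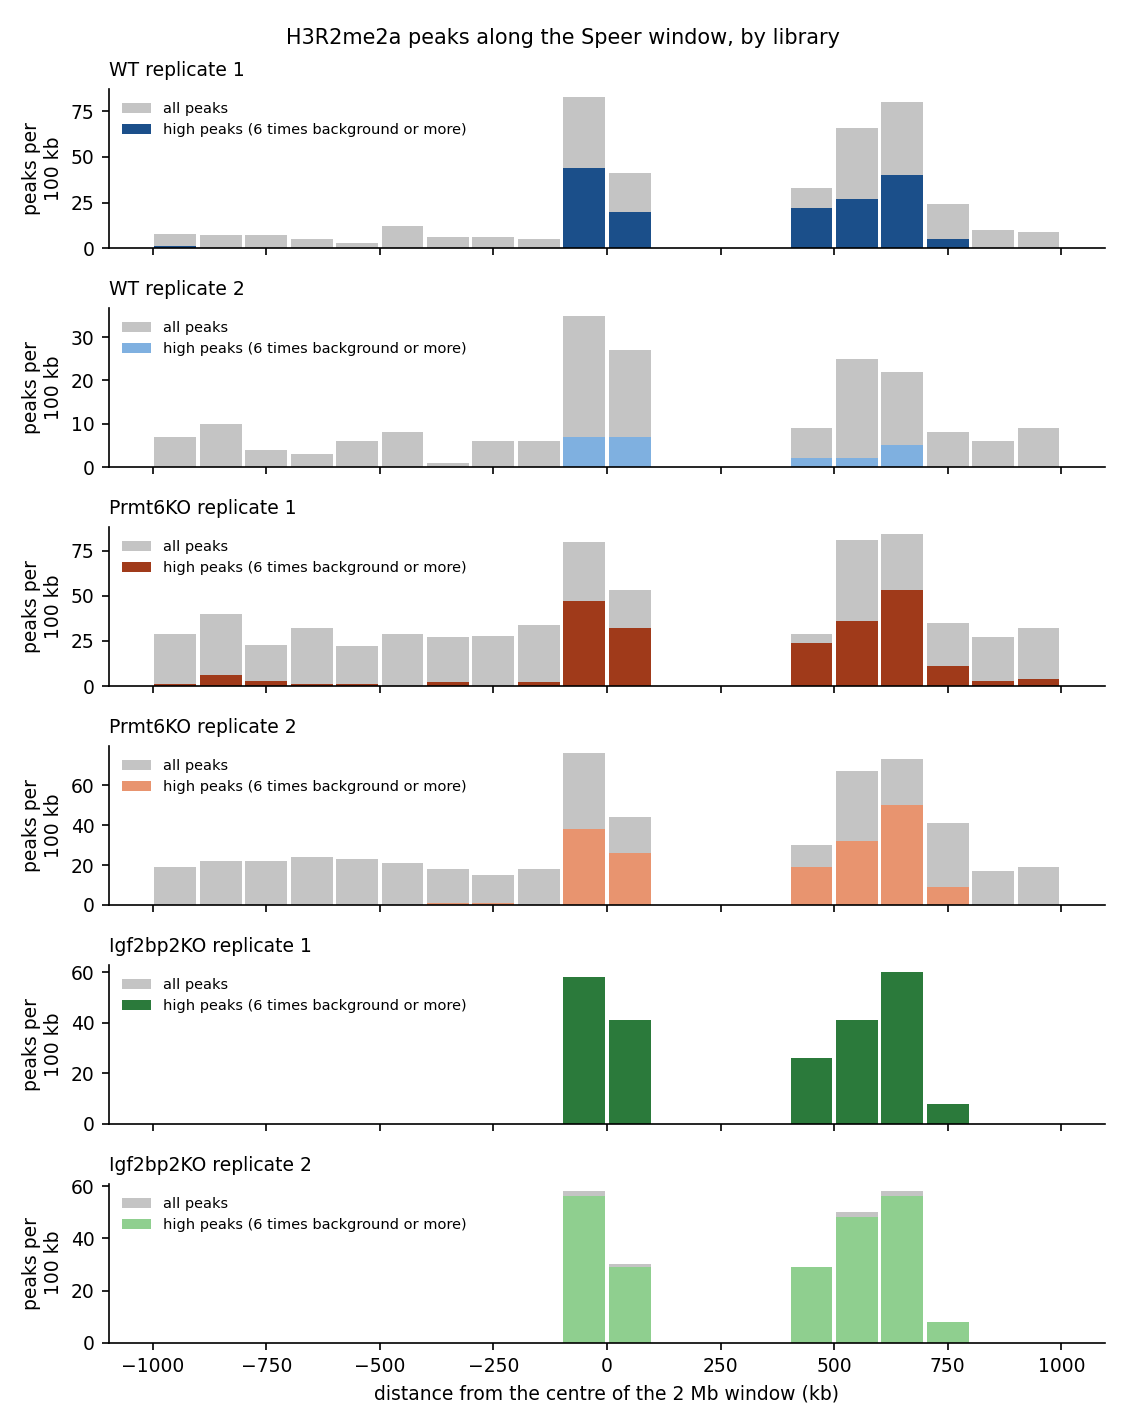
Number of H3R2me2a peaks per 100 kb (vertical axis, with a scale of its own in each panel) against distance from the centre of the 2 Mb window (horizontal axis, kb), 1 panel per library. Gray bars are all peaks and coloured bars high peaks. In all 6 panels most high peaks lie in the same 2 blocks, with 3 empty bins between them.

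Between the 2 parts of the array lay a stretch without a gene, 15033017 to 15471705, and its edges carried some of the highest peaks. Within it, 15062592 to 15457650 (395.1 kb) had no peak in any of the 6 lists. With no genome sequence of the build at hand, whether this empty stretch is a gap in the assembly was not tested. The edges held 33 and 14 peaks in WT, of which 18 and 3 were high, and 33 and 31 in Prmt6KO, of which 24 and 20 were high. In Igf2bp2KO all 30 and all 28 peaks of the edges were high. At the outer limits of the window the numbers were as follows. In the 100 kb outside and inside its start, the WT libraries had 6 and 8 peaks in replicate 1 and 5 and 7 in replicate 2. In Prmt6KO the numbers there were 34 and 29, and 19 and 19. In the 100 kb inside and outside its end, WT had 9 and 12, and 9 and 9, and Prmt6KO had 32 and 36, and 19 and 25. The Igf2bp2KO lists had 0 in each of these.

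The highest summits of the window stood above those of the flanks in every library that had flank peaks. The median summit in the window held 7 and 6 fragments for WT, 4 and 6 for Prmt6KO, and 16 and 13 for Igf2bp2KO. The median in the flanks held 6 fragments in both WT libraries, so that in WT replicate 2 the medians were equal, and 3 and 4 in Prmt6KO. The highest summit of the window held 27 and 13 fragments for WT, 17 and 29 for Prmt6KO, and 39 and 45 for Igf2bp2KO, against at most 13 and 11 in the WT flanks and 9 in both Prmt6KO flanks. Each Igf2bp2KO median lay above each WT and Prmt6KO median. The Igf2bp2KO lists began at a higher summit, however, so medians over whole lists compare peaks of different strength. On the log2 scale the median of Igf2bp2KO minus that of WT was 1.15 in fragments and -0.64 in the pileup as deposited, whose Igf2bp2KO values are multiples of 0.277 and 0.302 where the other lists have whole fragments. For Prmt6KO minus WT it was -0.40 in fragments and 0.22 in multiples of the background, so the direction rested on the scale. Heights also chose the window and are given without a test.

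**Figure D2:**
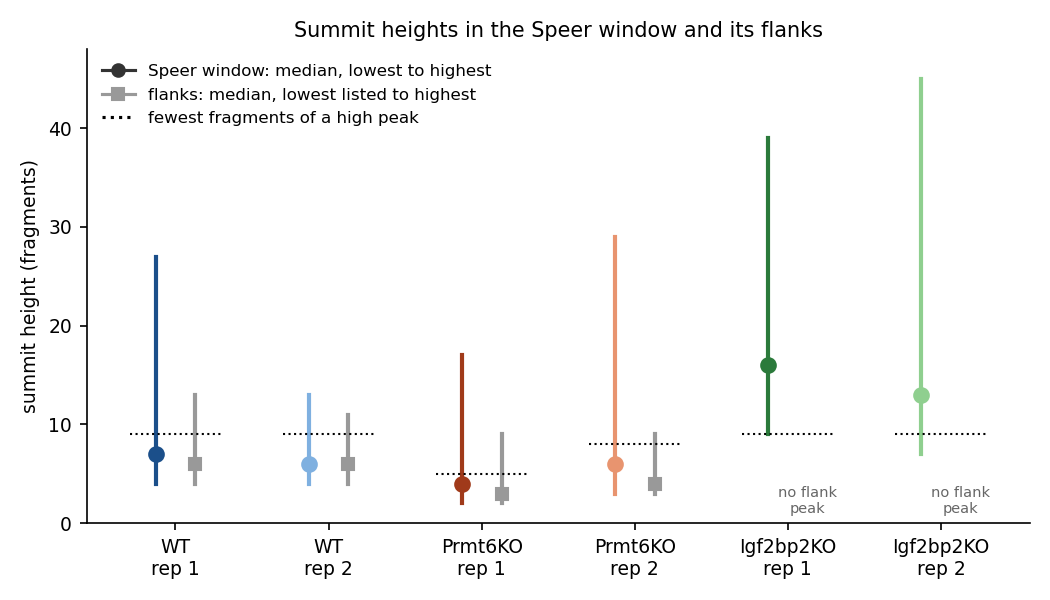
Summit height in fragments (vertical axis) for each library. Coloured circles are medians in the Speer window with lines from the lowest to the highest summit, gray squares and lines the same for the flanks, and dotted lines the fewest fragments of a high peak. The lines of the window reach 13 to 45 fragments and those of the flanks 9 to 13.

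High peaks made up a larger share of the window than of each whole list. WT replicate 1 had 159 high peaks in the window, 39.3% of its peaks there, where 3.05% of all its peaks on chromosomes 1 to 19 and X were high. WT replicate 2 had 23, or 12% against 2.03%. The Prmt6KO libraries had 226 and 176, or 33.0% and 32.1%, against 7.29% and 1.34%. In Igf2bp2KO 234 and 226 peaks were high, or 100% and 97%, where 99.5% and 90.7% of the whole lists were high, so these shares say little about the window. The flanks held 31 and 14 high peaks for WT, 508 and 33 for Prmt6KO and 0 for Igf2bp2KO. Over high peaks alone the density of the window was 51.3-fold and 16.4-fold that of the flanks in the WT libraries. In Prmt6KO it was 4.45-fold in replicate 1, whose flanks held 508 high peaks, and 53.3-fold in replicate 2. At a q-value of 0.05 or below, as the authors' peak caller gave it, the window held 159 and 23 peaks for WT, 122 and 176 for Prmt6KO, and 53 and 40 for Igf2bp2KO. A summit of 45 fragments in Igf2bp2KO replicate 2 had a −log10 q-value of 12.08, against 21.25 for 27 fragments in WT replicate 1. Counts at 1 q-value therefore do not compare equal heights. With 1 cut of 9 fragments for every library, a choice made after the data were seen, it held 159 and 23, 75 and 136, and 234 and 226.

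The WT libraries did not repeat each other here. The mean number of high peaks was 91 ± 96.2 (SD, n = 2) for WT, 201 ± 35.4 for Prmt6KO and 230 ± 5.66 for Igf2bp2KO. Without WT replicate 1 the WT value was 23 and without WT replicate 2 it was 159, so the size of any difference from WT depended on which library stood for it. For comparison, the window from 20 to 22 Mb of chromosome 8, with many defensin genes, held 250 and 207 high peaks for WT, 333 and 208 for Prmt6KO, and 199 and 204 for Igf2bp2KO. The window from 146 to 148 Mb of chromosome 4, with many zinc finger genes, held 258 and 202, 364 and 201, and 92 and 129. The WT libraries were thus closer to each other in both of those windows than in the Speer window, a difference for which no test was run. WT replicate 1 also stood apart on the X chromosome, as given above, and the part of that in this result was not tested.

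**Figure D3:**
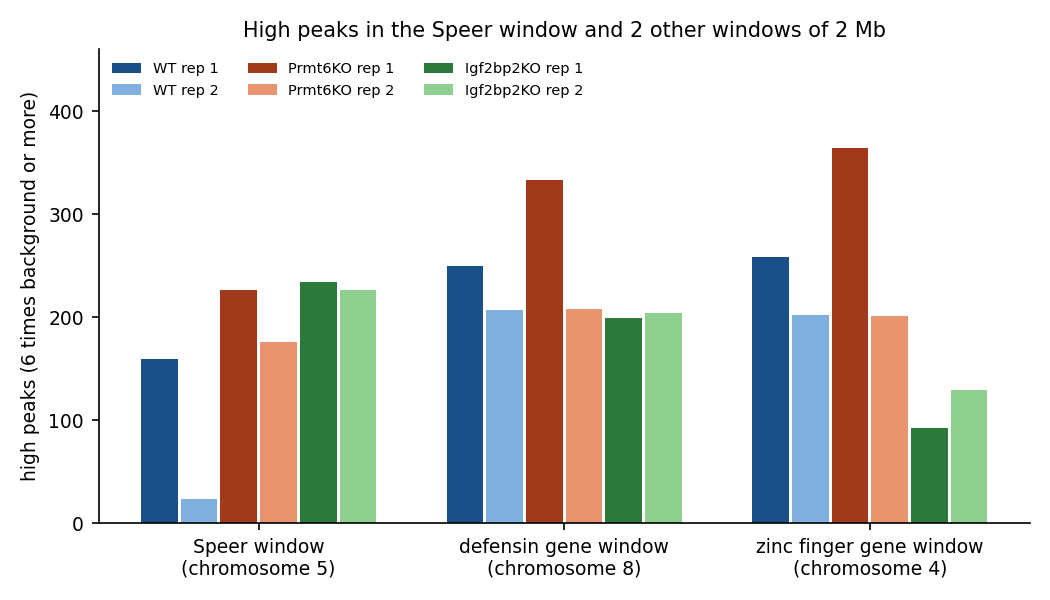
Number of high peaks (vertical axis) in the Speer window and in 2 other gene cluster windows of 2 Mb (horizontal axis), with 1 bar per library. WT replicate 2 has 23 high peaks in the Speer window, against 207 and 202 in the other windows.

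Each of the 6 genes that define the cluster had a peak in both libraries of both knockouts. A gene was counted when a peak overlapped its body or 1 kb on either side. In WT, 6 genes had a peak in replicate 1 and 4 in replicate 2, so that 4 of 6 had one in both, where 38.6% of 21631 protein-coding genes did. In Prmt6KO it was 6 of 6 against 73.0%, and in Igf2bp2KO 6 of 6 against 0.356%. Array genes are short, 4067 to 4845 bp, and among 822 protein-coding genes of 4 to 5 kb the shares were 5.23% for WT, 42.0% for Prmt6KO and 1.22% for Igf2bp2KO. The 822 include the 9 protein-coding genes of the array. These gave 6 of the 43 genes counted for WT, 9 of 345 for Prmt6KO and 9 of 10 for Igf2bp2KO. The shares over all protein-coding genes include them as well. A high peak in both libraries was found at 0 of 6 for WT, 6 of 6 for Prmt6KO and 6 of 6 for Igf2bp2KO, where 1.18%, 4.88% and 0.347% of all protein-coding genes had one. In WT replicate 1 alone, 6 of 6 had a high peak, where 5.62% of all protein-coding genes did. With peaks at a q-value of 0.05 or below alone, 0 of 6 genes had a peak in both WT libraries, 5 of 6 in both Prmt6KO libraries and 2 of 6 in both Igf2bp2KO libraries, against 1.18%, 1.60% and 0.0509% of all protein-coding genes. As given above, 1 q-value did not stand for equal heights across the lists. The genes were chosen for their peaks, so these counts describe them without testing anything.

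At Gm9758 (14910124 to 14914889) the highest summit held 14 and 6 fragments for WT, 6 and 11 for Prmt6KO, and 22 and 20 for Igf2bp2KO. Both Igf2bp2KO values lay above the other 4. Speer4e (14933631 to 14938475) reached 11 and 5 fragments for WT, 9 and 10 for Prmt6KO, and 23 and 12 for Igf2bp2KO, where replicate 2 was only 1 fragment above WT replicate 1. Gm10354 (14974144 to 14978955), a further copy, had 15 and 7 for WT, 13 and 20 for Prmt6KO, and 21 and 14 for Igf2bp2KO. Here the values of the 3 genotypes overlapped. It lies across the end of the pseudogene Speer8-ps1, so its peaks can count for both. Gm21149 (15471706 to 15476536), the first gene of the second part, had 17 and 7 fragments for WT, 14 and 16 for Prmt6KO, and 22 and 23 for Igf2bp2KO. Again both Igf2bp2KO values were above the other 4 in fragments. In multiples of the background this did not hold, as Prmt6KO replicate 1 was above both Igf2bp2KO libraries at Gm21149.

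Speer4d (15619099 to 15623864), a member named for the family, had 10 fragments in WT replicate 1 and no peak in WT replicate 2. Its Prmt6KO values were 12 and 14 and its Igf2bp2KO values 20 and 19, so the groups did not overlap in fragments. In multiples of each library's background the knockouts overlapped, with 16.3 and 11.6 for Prmt6KO and 13.8 and 14.2 for Igf2bp2KO. Speer4c (15709505 to 15714298), the last protein-coding gene of the array, had 15 fragments for WT replicate 1, no peak for WT replicate 2, 11 and 13 for Prmt6KO, and 21 and 16 for Igf2bp2KO. At all 6 genes WT replicate 2 was the lowest library or shared the lowest value in fragments. Igf2bp2KO replicate 1 was above every WT and Prmt6KO library there in fragments, but not at every gene in multiples of the background. At Gm10354 Prmt6KO replicate 1 had 17.7 times its background and Igf2bp2KO replicate 1 had 14.5 times. Peak counts per gene were small, from 0 to 8 in any list.

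The other 3 protein-coding copies of the array had summits of at most 24 fragments. Gm17019 (15028950 to 15033016) had 20 and 7 fragments for WT, 17 and 19 for Prmt6KO, and 23 and 15 for Igf2bp2KO, with WT replicate 1 above Igf2bp2KO replicate 2. Gm21190 (15524456 to 15529222) had 18 and 8 for WT, 9 and 16 for Prmt6KO, and 23 and 17 for Igf2bp2KO. Gm21083 (15577293 to 15582092) had 13 fragments and no peak for WT, 13 and 14 for Prmt6KO, and 24 and 19 for Igf2bp2KO. It lies inside the long non-coding RNA gene Gm30613, so their peaks cannot be told apart. Over the 9 copies, 6 had a peak in both WT libraries and 9 in both libraries of each knockout.

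In 5 of the 6 libraries the highest summit at a gene of the array was at a non-coding gene or pseudogene, and in Prmt6KO replicate 1 it was at Gm17019. Speer4cos, a transcribed pseudogene that spans Speer4c, had 27 and 10 fragments for WT, 13 and 29 for Prmt6KO, and 36 and 45 for Igf2bp2KO. Speer8-ps1, another transcribed pseudogene, had 16 and 11 in WT, 16 and 28 in Prmt6KO, and 31 in both Igf2bp2KO libraries. The third pseudogene, 4930572O03Rik, had 15 fragments in WT replicate 1, no peak in WT replicate 2, 14 and 16 in Prmt6KO, and 21 in both Igf2bp2KO libraries. These genes are 4772 to 33887 bp long, so the longer of them had more room for a high summit than the protein-coding copies.

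Among the long non-coding RNA genes, Gm30417 had 25 and 12 fragments for WT, 12 and 21 for Prmt6KO, and 36 and 34 for Igf2bp2KO. Gm21847 had 20 and 11, 11 and 19, and 27 and 29 in the same order. Gm30613 had 21 and 9, 13 and 20, and 24 and 24. Gm52805, which overlaps Gm9758, had 15 and 7, 8 and 14, and 22 and 20. At each of these 4 genes both Igf2bp2KO libraries were above all WT and Prmt6KO libraries in fragments. In multiples of the background this did not hold at Gm30613, with 17.7 in Prmt6KO replicate 1 against 16.5 in Igf2bp2KO replicate 1.

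**Figure D4:**
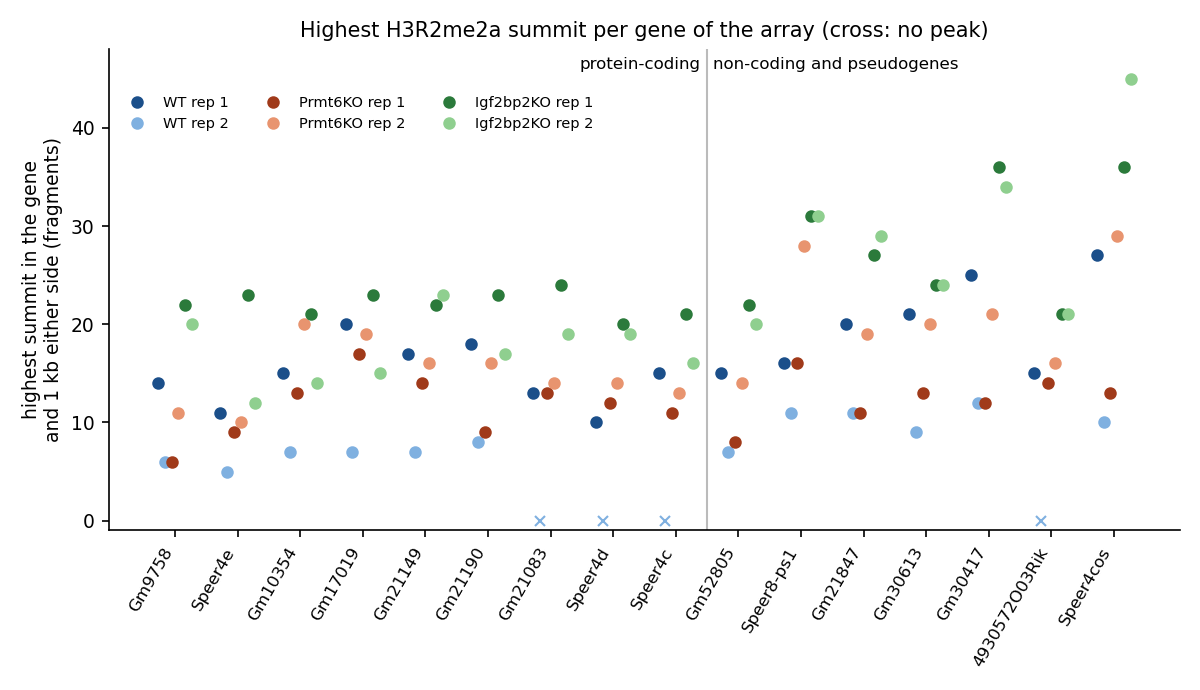
Highest summit in each gene of the array and 1 kb either side (vertical axis, fragments), with 1 point per library and the genes in chromosome order within each class (horizontal axis). Crosses mark genes without a peak. Igf2bp2KO points reach 45 at Speer4cos, and 4 crosses, all of WT replicate 2, lie at 0.

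The 8 genes of the window outside the array had summits of at most 10 fragments for WT and 9 for Prmt6KO, and no peak for Igf2bp2KO. Sema3e, which encodes a secreted axon guidance protein, had at most 9 and 7 fragments in WT and 6 and 7 in Prmt6KO. Pclo, which encodes a scaffold protein of the presynaptic zone, had 7 and 7 in WT and 5 and 9 in Prmt6KO. Cacna2d1, which encodes an auxiliary subunit of voltage-gated calcium channels, had 10 and 8 in WT and 5 and 8 in Prmt6KO. These 3 are long genes, and each had a peak in both libraries of WT and of Prmt6KO.
Of the short or non-coding genes, Gm18668 had 7 fragments in WT replicate 1, no peak in WT replicate 2, and 2 and 5 in Prmt6KO. Gm52852 had no peak in WT replicate 1, 8 fragments in WT replicate 2, and 3 and 4 in Prmt6KO. 4930519H02Rik had 6 and 5 fragments in WT and 4 and 6 in Prmt6KO, and Gm3510 had 5 and 6 in WT and 4 and 6 in Prmt6KO. Gm43000 had 6 and 7 in WT and 3 and 5 in Prmt6KO. None of these 5 genes had a high peak in any list.

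Speer relatives elsewhere in the genome had fewer high peaks. Of the 10 other Speer genes and pseudogenes, 6 of them on chromosome 5, a peak was found at 5 and 4 in WT, 10 and 7 in Prmt6KO and 0 in both Igf2bp2KO libraries. Of these 10, 2 had a high peak in 1 library and none had one in both libraries of a genotype. Beside the small shares of all protein-coding genes given above, a count of 0 of 10 for Igf2bp2KO or for high peaks in both libraries is near the background. Their highest summit held 9 and 7 fragments in WT and 5 and 6 in Prmt6KO. This included Speer4b and Speer4a, whose promoters were 97.3% and 96% identical to that of Gm10354 over 294 and 298 aligned bases. Speer4b had no peak in WT, and in Prmt6KO it had 5 and 2 peaks of at most 4 and 5 fragments. Speer4a had 1 peak of 6 fragments in WT replicate 1, none in WT replicate 2, and 8 and 2 peaks of at most 4 and 5 fragments in Prmt6KO. Gm7361 (26178213 to 26264312), which carries the 31 shared bases, had at most 7 and 6 fragments for WT and 6 and 6 for Prmt6KO and no peak for Igf2bp2KO. Dlg5, on chromosome 14, had 3 peaks and 0 peaks in WT, 23 and 9 in Prmt6KO, and 0 in both Igf2bp2KO libraries.

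Peaks were not gathered at the gene starts. A peak overlapped the promoter window, from 250 bases before to 50 after the start, at 8 of 9 copies for WT replicate 1, at 1 for WT replicate 2, at 9 and 8 for Prmt6KO, and at 6 and 4 for Igf2bp2KO. Of 32619 promoters of the same length on chromosomes 1 to 19 and X, 1.91% and 1.15% were overlapped in the WT lists, 14.0% and 4.95% in the Prmt6KO lists, and 0.0521% and 0.0368% in the Igf2bp2KO lists. These promoters include the 9 copies, and the Igf2bp2KO lists overlapped only 17 and 12 in all. At the Gm9758 sequence shown above, the highest overlapping peak had 14 fragments for WT replicate 1, none for WT replicate 2, 5 and 11 for Prmt6KO, and 22 and 20 for Igf2bp2KO. At Gm21190 the values were 18 and none, 8 and 14, and 23 and 14. Neither Speer4e nor Speer4d had a promoter peak in Igf2bp2KO or WT replicate 2. Speer4e had 4 and 9 fragments there in Prmt6KO and none in WT replicate 1, and Speer4d had 5 in WT replicate 1 and 5 in Prmt6KO replicate 1. In the kb before the start, 9 and 2 copies had a peak for WT, 9 and 8 for Prmt6KO, and 5 and 6 for Igf2bp2KO. From 3 to 4 kb into the gene it was 9 and 4, 9 and 9, and 9 and 6.

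**Figure D5:**
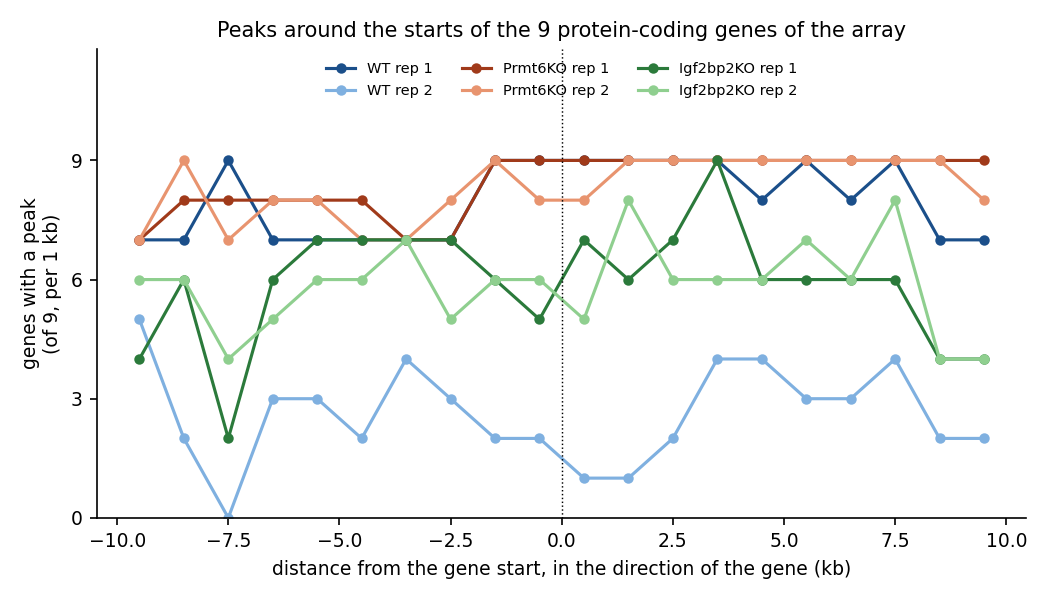
Number of the 9 protein-coding genes of the array with a peak in each kb (vertical axis) against distance from the gene start in the direction of the gene (horizontal axis, kb), with 1 line per library. Each line reaches its highest value in at least 1 kb that does not touch the start, and WT replicate 2 runs lowest in all but 1 kb, from 0 to 5 genes.

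Gene bodies held a share of summits not far from their share of the bases, which depends on the bases counted. The share in genes was not used to choose the window, but 6 of its genes define the cluster and were chosen for their peaks. Of the summits in the window, 49.9% and 46.4% lay in a gene of any kind for WT, 49.2% and 47.9% for Prmt6KO, and 44.9% and 46.4% for Igf2bp2KO, where genes cover 42.3% of the bases. Those bases include the 395.1 kb without a peak in any list, which hold no gene. In the array, genes of any kind cover 45.6% of the bases. They held 53.4% and 44.7% of its summits for WT, 44.5% and 48.5% for Prmt6KO, and 52.2% and 52.9% for Igf2bp2KO. Protein-coding genes cover 11.5% of the array and held 15.7% and 8.74% of its summits for WT, 11% and 13% for Prmt6KO, and 14.9% and 11.3% for Igf2bp2KO. The share in genes of any kind was 48.1% ± 2.49 for WT, 48.6% ± 0.913 for Prmt6KO and 45.6% ± 1.05 for Igf2bp2KO (SD, n = 2). The two-sided exact permutation test of Prmt6KO against WT gave p = 1, for a difference of 0.436 percentage points. For Igf2bp2KO the difference was -2.50 percentage points with an exact permutation p = 0.333, the smallest that 2 libraries against 2 allow, and it was 3.57 (exact permutation p = 1) in the array alone. Between Prmt6KO and WT the difference in the array alone was -2.50. With protein-coding genes of the window alone, it was 7.02 for Prmt6KO and -12.8 for Igf2bp2KO (exact permutation p = 0.333 each).

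Peaks of the window were wider than those of the flanks. The median width was 344 and 241.5 bp for WT, 297 and 336 bp for Prmt6KO, and 394 and 389 bp for Igf2bp2KO, against 225 and 218 bp in the WT flanks and 207 and 223 bp in the Prmt6KO flanks. The mean of the medians was 292.8 ± 72.5 bp for WT, 316.5 ± 27.6 bp for Prmt6KO and 391.5 ± 3.54 bp for Igf2bp2KO (SD, n = 2). On the log2 scale the Igf2bp2KO medians were larger by 0.44 than those of WT, in 2 of 2 libraries (exact permutation p = 0.333, the smallest possible). Over the whole lists the median width was 222 bp in both WT libraries, 206 and 222 bp in Prmt6KO, and 320 and 300 bp in Igf2bp2KO. Width also follows height, which chose the window, so the width tests are not free of that choice. Among high peaks alone the log2 difference of Igf2bp2KO from WT was -0.44. For Prmt6KO the difference was 0.13 (exact permutation p = 1), -0.12 without WT replicate 2, 0.57 among high peaks and 0.66 in the array alone. Over these 4 tests of gene share and width, the Benjamini-Hochberg adjusted values were 0.667 for both tests of Igf2bp2KO and 1 for both of Prmt6KO, so no difference passed 0.05.

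The same places carried peaks in different libraries. Of the WT replicate 1 peaks in the window, 22.7% overlapped a WT replicate 2 peak, and of the WT replicate 2 peaks 58.3% overlapped one of replicate 1. Over the whole lists these shares were 6.06% and 7.34%. In Prmt6KO the shares were 49.8% and 57.2% in the window and 11.5% and 21.6% over the whole lists. In Igf2bp2KO they were 76.9% and 73.0% against 56.2% and 43.7%. Of the Igf2bp2KO peaks in the window, 93.6% and 92.3% overlapped a peak of WT replicate 1, near the 91.7% and 82.1% of the whole Igf2bp2KO lists. A peak of WT replicate 2 was overlapped by 35.5% and 33.9% of them, where the whole lists had 77.4% and 72.5%. The whole Igf2bp2KO lists include the window, which held 24.4% and 19.1% of their peaks on chromosomes 1 to 19 and X. A peak of Prmt6KO replicate 1 was overlapped by 95.7% and 91.8% of the Igf2bp2KO peaks in the window (whole lists 94.6% and 82.6%). For Prmt6KO replicate 2 it was 97.9% in both (whole lists 95.6% and 88.7%). The Prmt6KO peaks covered 56.5% and 60% of the array, as given above, and the part of this coverage in the overlap was not tested.

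Merged over the 6 lists, the window's peaks formed 929 regions, of which 644 came from a single list. All 6 lists had a peak in 57 regions, and 49 of these lay in the array. A further 54 regions had a peak in 5 lists, and in 45 of them WT replicate 2 was the list without one. Both Igf2bp2KO lists had a peak in 107 regions, of which 104 had one in WT replicate 1, 58 in WT replicate 2 and 104 in both Prmt6KO lists. In the 57 common regions the median of the highest summit was 14 and 7 fragments for WT, 9 and 14 for Prmt6KO, and 23 and 18 for Igf2bp2KO. In multiples of each library's background these were 9.58 and 4.87, 12.2 and 11.6, and 15.8 and 13.5. By that measure WT replicate 2 was the lowest library in 51 of 57 regions. Igf2bp2KO replicate 1 was the highest in 27 and replicate 2 in 17. Each region needed a peak in all 6 lists, and the Igf2bp2KO lists began at 8 and 7 fragments, WT at 4 and Prmt6KO at 2 and 3. The lowest summit of these regions held 10 and 9 fragments in Igf2bp2KO and 4 or 5 in the other libraries. The choice of regions thus bears on these heights and ranks, and its part was not tested.
Heights in the 57 regions rose and fell together across the 15 pairs of libraries, with Pearson's r from 0.34 to 0.70 and Spearman's rho from 0.41 to 0.63. The points share the same near-identical copies and differ in merged width, so these are descriptions.

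The common region with the largest sum of heights, each in multiples of the library's background, overlapped one end of Speer4cos. This region, chr5:15677715-15681976, reached 27 and 8 fragments for WT, 13 and 29 for Prmt6KO, and 34 and 45 for Igf2bp2KO, and held the highest summits of Prmt6KO replicate 2 and Igf2bp2KO replicate 2. The next, chr5:15005607-15011640, lay between genes and had 19 and 10, 15 and 25, and 28 and 35 in the same order. The third, chr5:15630105-15633350 in Gm30417, had 25 and 12, 9 and 21, and 36 and 34. In these 3 both Igf2bp2KO libraries were above the other 4 in fragments. In multiples of the background this held only in the third. In the first, Igf2bp2KO replicate 1 had 23.4 against 24.0 in Prmt6KO replicate 2. In the second, it had 19.3 against 20.4 and 20.7 in Prmt6KO. The fourth, chr5:14958871-14960679 in Speer8-ps1, had 16 and 7, 16 and 28, and 26 and 31, and the fifth, chr5:14986842-14992579, lay between genes and had 16 and 10, 15 and 18, and 33 and 29.
WT replicate 1 had its highest summit, 27 fragments or 18.5 times the background, both in the region at Speer4cos and in chr5:15053502-15054630, at an edge of the gene-free stretch. In WT replicate 2 it lay in chr5:14995136-14995976 with 13 fragments, 9.04 times the background, again shared with 1 other peak. In Prmt6KO replicate 1 it lay in chr5:15030315-15032099, in Gm17019, with 17 fragments, 23.1 times the background. In Igf2bp2KO replicate 1 it lay in chr5:15051630-15052145 with 39 fragments, 26.9 times the background, within 2 kb of the highest summit of WT replicate 1. All of these lay in the array or on the edges of the gene-free stretch.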

How the data were processed

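The 6 H3R2me2a peak lists of 9 samples were used, grouped by the genotype in the sample titles. Reads had been handled with MACS2 2.1.0, HISAT2, bedtools, Trim Galore and bcl2fastq 2.17 on build mm10, per the submitters' processing notes, which give no settings. Peaks were called per library, per the file headers. The deposited fold enrichment is a ratio of signal to background at the summit, and the deposited p-values and q-values stand as −log10 beside a score made from them. The deposited pileup is a coverage signal. Within a list, fold enrichment equalled the pileup plus 1 over the background plus 1 with 1 background throughout, so no local or input background is visible there. Pileups were divided by their step (1, or 0.277 and 0.302 in Igf2bp2KO) to give fragments. Total reads per library are not given in the sources used here, so precision is limited by summits of few fragments.

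Start positions were counted from 1, overlap meant at least 1 shared bp, and a density of 0 was set to a floor of 3 peaks per library, which covers counting error only. Genes and promoters came from RefSeq GRCm38.p6 tables. Promoters were aligned locally with Biopython 1.88 (match 2, mismatch -3, gap open -5, gap extension -2). Other steps used Python 3.11.15, numpy 2.4.6 and pandas 2.3.3 and were checked on simulated lists. Width and gene share were tested with two-sided exact permutation of 2 libraries against 2 (6 splits).

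Members and lists were chosen with earlier results of these data known, and density and height chose the window, so these have no test. Named were the 6 defining genes, every other gene of the window with a peak, Speer relatives as counts, Dlg5, the highest summit of each library, and the 5 common regions with the largest sum of heights. Speer4a, Speer4b and Gm7361 were named after their values were seen. Alternatives covered flanks, thresholds, units, extents, gene windows, overlap and each library left out. Inputs were not analysed here.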

Additional observations from a re-analysis of the deposited data

How the results depend on the processing

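Of 113 alternative values of 18 results, 73 were kept. A tested value was kept when its direction held, an untested one within 1 SD and a count within 1.5 times. Some of the 73 were fixed in advance. With 2 libraries, leaving 1 out cannot move a density or height by more than 1 SD, and the replicate block repeats the main difference. The exact permutation tests allow no p below 0.333, so no value could change its side of a threshold. Of the other alternatives, 32 moved and 8 changed sign. Causes were not tested, apart from values set by the limit of 3 peaks below. The density of the window over its flanks was 2.04-fold in WT, 1.24-fold in Prmt6KO and at least 778-fold in Igf2bp2KO. At a q-value of 0.05 or below it was 33.9, 49.3 and at least 155. Over high peaks it was 33.9, 28.9 and at least 767 (means of 51.3 and 16.4 in WT and of 4.45 and 53.3 in Prmt6KO). In the array alone it was 7.04, 3.16 and at least 3651. By covered bases it was 3.62 in WT and 2.47 in Prmt6KO, and no value could be had for Igf2bp2KO with its empty flanks. In Igf2bp2KO it was at least 389 against either flank alone, 364 against chromosomes 1 to 19, and at least 1170 for 15 to 16 Mb alone. Both flanks were empty there, so 389 reflects the limit of 3 peaks over 10 Mb instead of 20 Mb. Leaving out each library gave 1.42 to 2.66 in WT, 1.07 to 1.42 in Prmt6KO and lower limits of 777 to 780 in Igf2bp2KO.

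The log2 height difference from WT was -0.016 in Prmt6KO and 0.27 in Igf2bp2KO by deposited fold enrichment, -0.64 in Igf2bp2KO by deposited pileup, and 0.22 in Prmt6KO in multiples of the background. Leaving out each library gave -0.70 to -0.11 in Prmt6KO and 1.00 to 1.30 in Igf2bp2KO. High peaks numbered 91 (WT), 201 (Prmt6KO) and 230 (Igf2bp2KO) on average. At 4 times the background it was 236 in WT and 504 in Prmt6KO, and at 8 times 45.5 in WT. At a fold enrichment of 6 in fragments it was 29, 59 and 135. At 9 fragments it was 106 in Prmt6KO, and at a q-value of 0.05 or below 46.5 in Igf2bp2KO. Leaving out each library gave 23 to 159 in WT, 176 to 226 in Prmt6KO and 226 to 234 in Igf2bp2KO.

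The log2 width difference from WT ran from -0.12 to 0.39 in Prmt6KO and from 0.19 to 0.70 in Igf2bp2KO with each library left out, and was 0.57 and -0.44 over high peaks and 0.66 and 0.19 in the array alone. The gene-share difference ran from -1.33 to 2.20 percentage points in Prmt6KO (-0.21 without Prmt6KO replicate 1) and from -4.26 to -0.74 in Igf2bp2KO, was -2.50 and 3.57 in the array alone, and was 7.02 and -12.8 with protein-coding genes alone. Overlap between replicates, 53.5% in Prmt6KO and 74.9% in Igf2bp2KO, was 43.1% and 67% when 0.5 of a peak's length had to be shared, and 75.3% in Prmt6KO over high peaks. At a q-value of 0.05 or below, 0 of the 6 genes in WT and 2 in Igf2bp2KO had a peak in both libraries.

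With the replicate block, width differences were 0.13 and 0.44 and gene-share differences 0.44 and -2.50, with exact sign-flip p = 1, 0.5, 1 and 0.5. These differences equal the main ones by arithmetic. The sign-flip test of 2 pairs allows no p below 0.5, so no call could change. The numbers were not taken as pairing: across 2414 bins of 1 Mb, same-numbered deviations had r = 0.53 for WT and Prmt6KO, 0.07 for WT and Igf2bp2KO and 0.12 for the knockouts. Alternatives in the array alone, at 9 fragments, at a fold of 6 and in multiples of the background were chosen after the data were seen. With 2 libraries per genotype and summits of few fragments, differences of 1 or 2 fragments at a single gene were not resolved.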

Other observations

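The lists also held peaks on unplaced scaffolds assigned to chromosome 5, which belong in no comparison above. WT had 116 and 82 such peaks, Prmt6KO 677 and 364, and Igf2bp2KO 0 and 0. The highest held 8 and 8 fragments in WT and 7 and 8 in Prmt6KO.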
